A study of Arabidopsis thaliana with 6 samples.

Results

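Transcripts of 7 genes were followed in sorted root cap cells: 6 genes of flavonoid synthesis, CHS, CHI, CHIL, F3H, F3'H and FLS1, and the thiolase gene KAT5. They were chosen because their signals on these same arrays moved together between the groups, so everything said of their levels is a description and carries no test. Each gene is read by 1 probe set of the Affymetrix ATH1 array, and the 7 are part of 22746 probe sets that are not controls. The platform annotation used here names only CHIL (AT5G05270, probe set 250794_at). The other 6 pairings of probe set and gene come with the choice of the genes: CHS with AT5G13930 (250207_at), CHI with AT3G55120 (251827_at), F3H with AT3G51240 (252123_at), F3'H with AT5G07990 (250558_at), FLS1 with AT5G08640 (250533_at) and KAT5 with AT5G48880 (248625_at). All 7 loci carry the matching gene name or synonym in the RefSeq gene table of assembly TAIR10.1.

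The cells came from roots of Arabidopsis thaliana seedlings of the C24 ecotype, 5 days old, and were sorted by the fluorescence of the lateral root cap line J2632. Every plant carried UAS::ARR1ΔDDK-GR under the control of that line. The encoded protein is a version of the cytokinin-response regulator ARR1, a DNA-binding protein, without its inhibitory domain and joined to a steroid receptor that enters the nucleus when dexamethasone is present. The 3 groups were left untreated or received dexamethasone for 1 h or 4 h, with 2 biological replicates and 1 array each. No group lacked the construct and none received a mock treatment, so the induced protein, the steroid itself and the hours that passed cannot be told apart.

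Flavonoids are plant phenolics built from a phenylpropanoid starter and malonyl units. Chalcone synthase makes the first chalcone, chalcone isomerase closes its ring, and hydroxylases then give dihydroflavonols. Flavonol synthase turns these into flavonols such as quercetin and kaempferol. Flavonols accumulate near the tips of Arabidopsis roots and are known to modulate the transport of auxin. A separate branch through dihydroflavonol reductase leads to anthocyanins and, in the seed coat, to proanthocyanidins.

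In their group means all 7 genes ran through the same sequence: intermediate in untreated cells, lower at 1 h and highest at 4 h. The step down at 1 h was small for FLS1, whose deposited intensities overlapped between untreated (90.5 and 63.5) and 1 h (63.1 and 67.5). The median log2 difference of the 7 was -0.95 at 1 h and 2.80 at 4 h, both relative to untreated cells, and 3.57 between 1 h and 4 h. Without 1 h replicate 2 the median at 1 h was -0.57. Over all probe sets the corresponding medians were 0.00, -0.01 and 0.00. A log2 difference of 3.57 is an 11.9-fold higher signal. These values are on the scale of quantile-normalized log2(intensity + 16), which understates differences of weak signals. Since the RNA came from pools of cells, fewer cells of a type and less RNA per cell cannot be told apart.

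**Figure D1:**
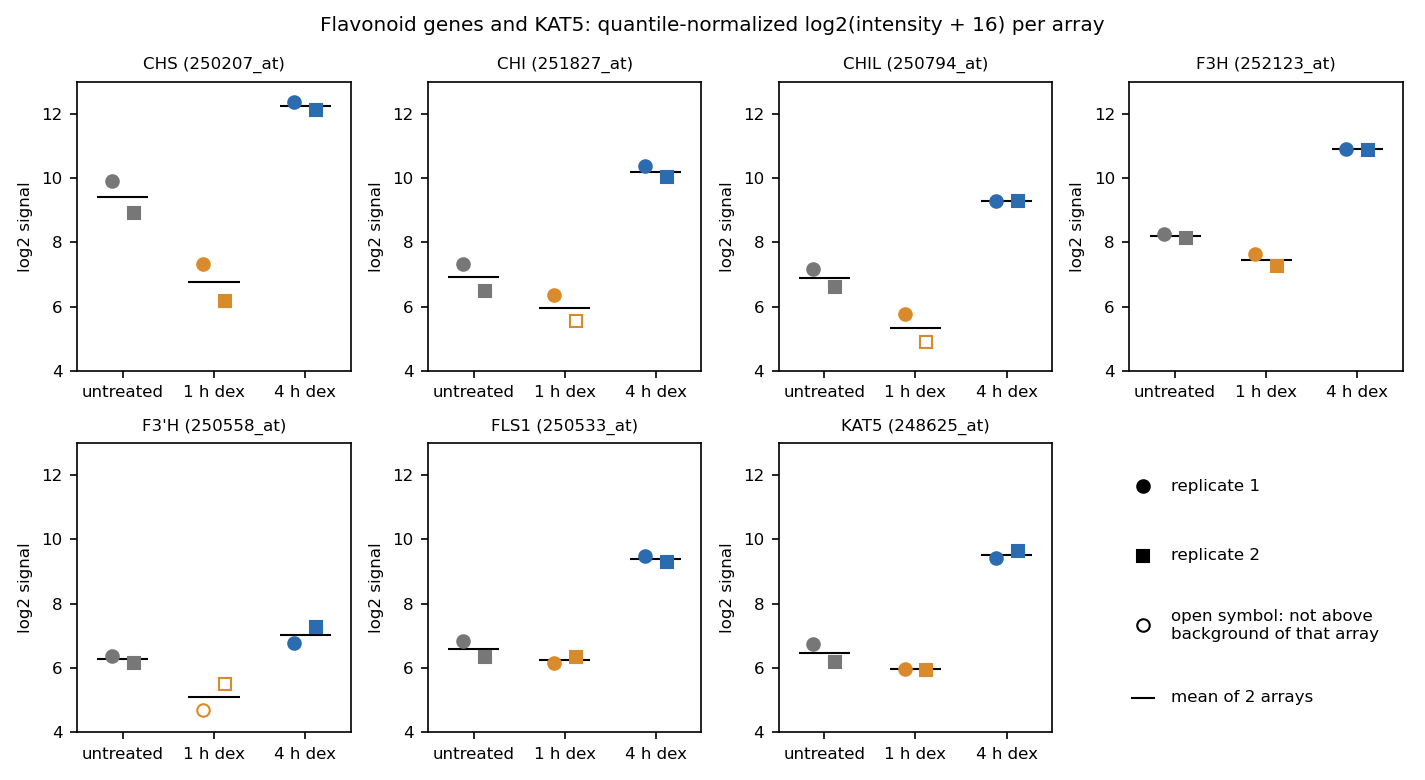
Normalized log2 signal (vertical axis, log2 of intensity plus 16) of each gene on the 6 arrays, by group on the horizontal axis, with replicates as circle and square and the mean of 2 arrays as a line. Both 4 h arrays lie above all other arrays for all 7 genes, and F3'H at 1 h is not above background on either array.

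CHS encodes chalcone synthase, the enzyme that commits carbon to flavonoids. Its deposited intensity was 977 and 479 on the untreated arrays, 146 and 58.9 at 1 h, and 5260 and 4434 at 4 h. The groups did not overlap in either direction. In log2 units the replicates differed by 1.00 untreated and 1.14 at 1 h, more than the 0.25 at 4 h. On the log2 scale CHS measured 9.42 ± 0.71 (SD, n = 2) untreated, 6.75 ± 0.80 at 1 h and 12.24 ± 0.17 at 4 h. The differences were -2.67 at 1 h and 2.82 at 4 h against untreated, and 5.48 between the times (SE 0.47 each), which is 44.8-fold. Among all probe sets CHS had the highest absolute difference of 4 h against 1 h, and it was the only one whose level at 1 h lay 2 or more log2 units below untreated.

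CHI encodes chalcone isomerase, which closes the ring of the chalcone. Intensities were 138 and 72.9 untreated, 72.7 and 31.9 at 1 h, and 1308 and 1013 at 4 h. The weaker untreated array and the stronger 1 h array were nearly equal, and 1 h replicate 2 was not above background. Background was higher on the 1 h arrays (43.2 and 47.1) than on the untreated ones (32.5 and 29.1). The log2 means were 6.91 ± 0.59 (SD, n = 2), 5.96 ± 0.58 and 10.19 ± 0.24. CHI differed by 3.28 (SE 0.40) at 4 h against untreated, 9.70-fold, more than the other 6 genes, and by 4.23 against 1 h. At 1 h its difference from untreated was -0.95 (SE 0.40), and -0.54 without untreated replicate 1 or without 1 h replicate 2.

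CHIL encodes a relative of chalcone isomerase that lacks the isomerase activity and raises the efficiency of chalcone formation. It read 119 and 81.6 untreated, 45.5 and 13.8 at 1 h, and 605 and 610 at 4 h. The 4 h arrays were almost identical, whereas 1 h replicate 2 was again not above background. With log2 means of 6.88 ± 0.39 (SD, n = 2), 5.35 ± 0.62 and 9.29 ± 0.01, the differences were -1.54 at 1 h and 2.41 at 4 h against untreated (SE 0.36 each). The size at 1 h rests on a weak signal: it was -2.07 with a pseudocount of 1 and -0.89 with one of 64.

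F3H encodes flavanone 3-hydroxylase, the step from flavanones to dihydroflavonols. Its intensities were 282 and 279 untreated, 184 and 141 at 1 h, and 1912 and 1868 at 4 h, and it exceeded background on all 6 arrays. Replicates of F3H were close in every group, with a residual SD of 0.16 on the log2 scale, the smallest of the 7. The log2 means were 8.20 ± 0.08 (SD, n = 2), 7.45 ± 0.27 and 10.90 ± 0.02. The difference was -0.75 at 1 h and 2.70 at 4 h against untreated (SE 0.24 each), or 6.48-fold at 4 h.

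F3'H encodes flavonoid 3'-hydroxylase, a cytochrome P450 that turns kaempferol-type into quercetin-type precursors. It read 61.0 and 52.4 untreated, 9.61 and 30.9 at 1 h, and 94.5 and 138 at 4 h. F3'H had the smallest 4 h difference of the 7, and neither 1 h array exceeded its background, which was 43.2 and 47.1. Its 4 h level was 1.70-fold that of untreated cells (log2 difference 0.76, SE 0.34). Against 1 h only a bound can be given: F3'H was at least 2.32-fold higher at 4 h and at least 1.36-fold higher in untreated cells. These bounds set the mean of the brighter group against the lowest normalized level above background on the arrays of the dimmer one. They hold on the normalized scale and depend on the normalization.

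FLS1 encodes flavonol synthase, the last step to the flavonols. Its intensities were 90.5 and 63.5 untreated, 63.1 and 67.5 at 1 h, and 699 and 609 at 4 h. At 1 h FLS1 stood near the weaker untreated array: the groups overlapped in the deposited intensities and were apart by 0.01 after normalization. The 1 h difference of -0.34 (SE 0.26) was the smallest of the 7, while the 4 h difference against untreated was 2.80 (SE 0.26), or 6.95-fold. Against 1 h the level of FLS1 at 4 h was 8.79-fold.

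KAT5 encodes a 3-ketoacyl-CoA thiolase with peroxisomal and cytosolic forms, an enzyme of fatty acid breakdown and not of the flavonoid chain. It read 85.4 and 54.3 untreated, 54.3 and 47.7 at 1 h, and 673 and 777 at 4 h. The profile of KAT5 was closest to that of FLS1: over the 6 arrays their log2 signals correlated with r = 0.996. KAT5 differed by -0.52 at 1 h and by 3.05 at 4 h against untreated (SE 0.27 each), 8.28-fold at 4 h. The 1 h value was -0.24 without untreated replicate 1 and -0.78 without untreated replicate 2. Of the 7, only CHI had a higher fold at 4 h against untreated.

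**Figure D2:**
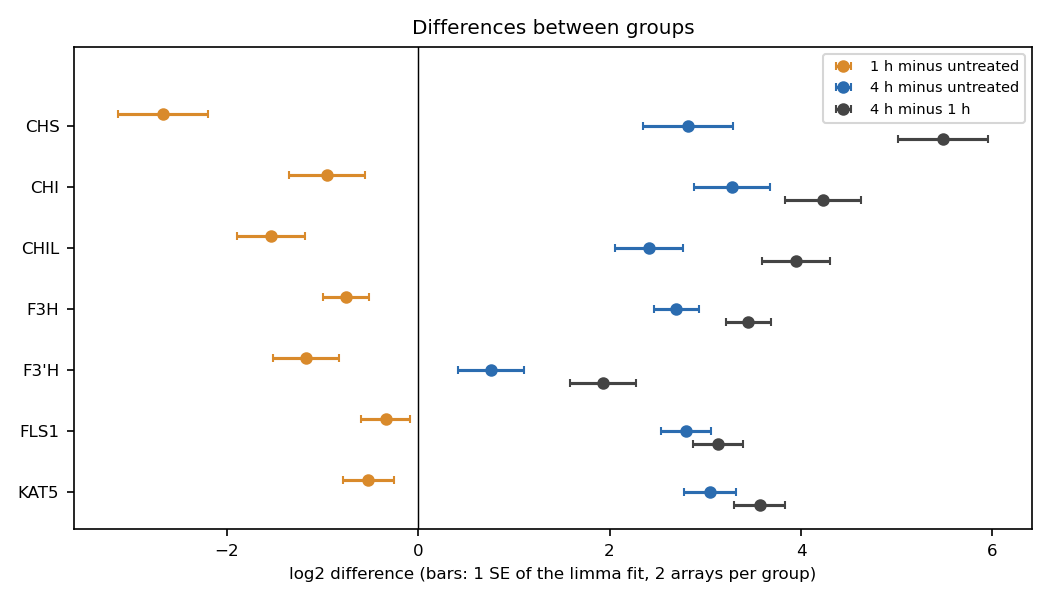
Log2 differences between groups (horizontal axis) for the 7 genes (vertical axis), with bars of 1 SE from the limma fit and 2 arrays per group. All 1 h differences are negative, from -2.67 for CHS to -0.34 for FLS1, and all 4 h differences against untreated are positive, from 0.76 for F3'H to 3.28 for CHI. The fitted values of F3'H that involve 1 h rest on signals that are not above background.

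Against the whole array all of the 7 genes but F3'H stood at the upper end of the 4 h differences, and the choice of the genes drew on these differences. F3'H ranked 1914 by absolute difference of 4 h against untreated. Of all probe sets, 12 were higher by 2 or more log2 units at 4 h than at 1 h, and 6 of the 12 were genes of this set. Against untreated 16 probe sets were higher by that much at 4 h, again with 6 of the set. F3'H was the one outside both counts. By limma's test over all probe sets, 5 passed for 4 h against 1 h (0.0220%). Without any 1 of the 6 arrays 0 passed. The corresponding share was 0.00440%, or 1 probe set, at 4 h relative to untreated, and 0% at 1 h. At an unadjusted p under 0.05 the shares were 9.24%, 9.08% and 5.78%. No result of this test is given for the 7 genes, since the same contrasts chose them.

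Both 4 h arrays exceeded both untreated arrays for 7 of 7 genes, against 20.0% of all probe sets, and both exceeded both 1 h arrays for 7 of 7, against 21.8%. At 1 h both arrays lay below both untreated arrays for 7 of 7 after normalization, against 15.7% of all probe sets. In the deposited intensities this held for 6 of 7, with FLS1 the exception. For CHI and KAT5 it held by a hair: untreated replicate 2 read 72.86 and 54.32, and 1 h replicate 1 read 72.69 and 54.26. The full sequence, with 1 h below and 4 h above untreated and no overlap, was shown by 354 probe sets in all, or 1.56%.

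The genes also differed from each other in size. At 1 h CHS and CHIL lay 2.67 and 1.54 log2 units below untreated, F3'H was not above background, CHI and F3H by 0.95 and 0.75, and KAT5 and FLS1 by 0.52 and 0.34. At 4 h the differences against untreated were between 2.41 and 3.28 for all but F3'H. Over the 6 arrays the 21 pairwise correlations ranged from 0.805 (CHI with F3'H) to 0.996 (FLS1 with KAT5), with a median of 0.955, and the 6 lowest all involved F3'H. The points of each correlation share the same 6 arrays, and the 4 h pair sets most of the range.

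Replicates varied in a shared way within the untreated pair. All 7 genes were higher on untreated replicate 1 than on replicate 2, by 0.11 (F3H) to 1.00 (CHS) log2 units with a median of 0.55, while the median over all probe sets was 0.01. At 1 h replicate 1 was higher for 5 of 7 genes, and at 4 h for 4 of 7, with gaps from -0.48 (F3'H) to 0.34 (CHI). The control ratio of 3' to 5' GAPDH signal, a sign of RNA quality, was 3.11 and 3.41 untreated, 4.65 and 3.26 at 1 h, and 3.15 and 4.32 at 4 h. The part of RNA quality in the 1 h differences was not tested.

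The wider pathway was covered thinly, because the annotation pairs only 11 of 68 listed genes with a probe set of a single gene. None of the 9 genes of phenylpropanoid entry, the 3 of flavonoid transport and the 13 family relatives was paired, so they were not analysed. Of 23 regulators only HYH, a bZIP factor of the light response, was paired, and it exceeded background on 0 arrays. The annotation also names only CHIL of the 7 genes followed here, so a missing pairing does not mean that the array lacks a gene. The lists hold textbook genes of each step, written down with earlier results of these data known. In limma's test 0 of 11 passed in any of the 3 contrasts, in either direction. Over all probe sets the shares were 0% at 1 h and 0.00440% at 4 h relative to untreated, and 0.0220% between the times. At an unadjusted p under 0.05 there were 1 of 11 at 1 h, beside 5.78% of all probe sets. There were 4 of 11 at 4 h relative to untreated, beside 9.08%, and 2 of 11 between the times, beside 9.24%.

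Of 7 listed genes that decorate flavonols 4 were paired with a probe set, all sugar transferases, and none passed the test. UGT89C1 (AT1G06000), a flavonol 7-O-rhamnosyltransferase, read 107 and 143 untreated, 109 and 125 at 1 h, and 330 and 294 at 4 h. Its log2 difference was 1.22 (SE 0.23, limma adjusted p = 0.258) at 4 h against untreated and -0.13 (SE 0.23, limma adjusted p = 0.972) at 1 h. With a pseudocount of 64 UGT89C1 passed at 4 h against untreated, with a difference of 0.99 (SE 0.16, limma adjusted p = 0.0474); over all alternatives the adjusted p ranged from 0.0474 to 0.947. UGT78D2 (AT5G17050), a flavonoid 3-O-glucosyltransferase, read 152 and 182 untreated, 149 and 167 at 1 h, and 327 and 292 at 4 h. It differed by 0.84 (SE 0.22, limma adjusted p = 0.356) at 4 h against untreated and by -0.10 at 1 h. For both genes the 4 h arrays lay above all others, and the untreated and 1 h arrays overlapped. UGT78D3 (AT5G17030), a flavonol arabinosyltransferase, read 15.5 and 25.0 untreated, 37.1 and 45.9 at 1 h, and 43.6 and 44.6 at 4 h. The 1 h and 4 h arrays overlapped in these intensities, but background was higher at 1 h (43.2 and 47.1) than at 4 h (33.4 and 31.9), so that UGT78D3 exceeded it on the 4 h arrays alone. It was at least 1.21-fold higher at 4 h than untreated (limma adjusted p = 0.514). UGT78D1, a flavonol 3-O-rhamnosyltransferase, exceeded background on no array.

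Of the 5 measured genes of the anthocyanin and proanthocyanidin branch only DFR and UGT79B1 exceeded background on both 4 h arrays. Neither was higher there than in untreated cells, and neither passed the test. DFR (AT5G42800), which encodes dihydroflavonol reductase, the entry to that branch, read 56.9 and 49.0 untreated, 66.9 and 54.2 at 1 h, and 41.7 and 33.3 at 4 h. Both 4 h arrays were the lowest of the 6 for DFR, with a difference of -0.44 (SE 0.23, limma adjusted p = 0.644) against untreated. UGT79B1 (AT5G54060), an anthocyanin xylosyltransferase, went from 184 and 139 to 114 and 117 at 4 h, a difference of -0.43 (SE 0.24, limma adjusted p = 0.680). 5MAT (AT3G29590), an anthocyanin malonyltransferase, was above background only in untreated cells, at 42.2 and 34.2, and was at least 1.18-fold higher there than at 4 h (limma adjusted p = 0.282). BAN, an anthocyanidin reductase best known from the seed coat, exceeded background on 1 untreated and 1 array at 4 h, and UGT75C1, an anthocyanin glucosyltransferase, on none. Of the 5 measured genes of the branch 1 was higher at 4 h than untreated, UGT75C1, whose signal was below background, and the median was -0.43. Whether the sugar-transfer genes and this branch differ from each other was not tested.

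AIM1 (AT4G29010), a multifunctional protein of peroxisomal beta-oxidation and the only measured partner of thiolases among 6 listed, read 1361 and 1086 untreated, 931 and 847 at 1 h, and 1180 and 1230 at 4 h. Its 4 h difference against untreated was -0.02 (SE 0.23, limma adjusted p = 0.990), beside 3.05 for KAT5. The probe sets of the other listed thiolases, KAT1 and KAT2, were not analysed here.

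**Figure D3:**
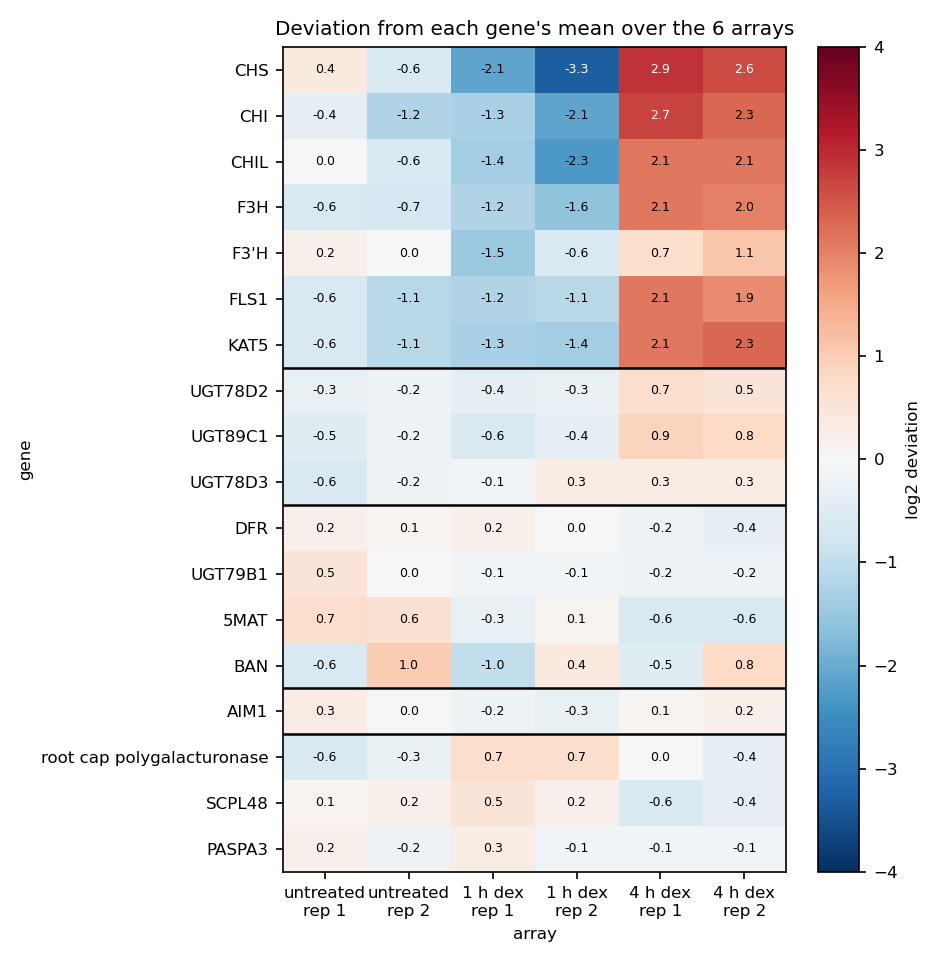
Log2 deviation of each gene from its own mean over the 6 arrays (colour and printed value), for the 7 genes, the sugar-transfer genes, the anthocyanin and proanthocyanidin genes, AIM1 and 3 root cap genes from top to bottom, split by lines. The 7 genes are positive on both 4 h arrays, while DFR, UGT79B1 and 5MAT are negative there, 5MAT with signals not above background. BAN is negative on 4 h replicate 1 and positive on 4 h replicate 2.

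Profiles like that of the 7 genes were sought among 1828 other probe sets that exceeded background on 2 or more arrays and spanned at least 1.5 log2 units. The measure was the correlation over the 6 arrays with the mean standardized profile of the 7, given as a description. There were 23 with r over 0.95, and the most alike was the unnamed 258167_at (r = 0.991), at 39.5 and 37.5 untreated, 30.4 and 16.2 at 1 h, and 138 and 153 at 4 h. Of the 10 most alike, 3 are named by the annotation. AT5G17010 (r = 0.981), a sugar transporter-like gene, read 69.3 and 57.7, 46.4 and 56.6, and 164 and 149 in the same order. Its locus is separated from UGT78D3 by 1 protein-coding gene in the RefSeq table. AT1G66800 (r = 0.979) read 961 and 680, 656 and 436, and 1938 and 2110. AT5G62210 (r = 0.971) read 244 and 104, 43.6 and 44.1, and 669 and 576, the widest span of these 3. The most opposite profiles were those of AT3G19320 (r = -0.993), the unnamed 247333_at (r = -0.986) and AT5G01210 (r = -0.985), the last an acyltransferase-like gene at 102 and 124 untreated, 232 and 237 at 1 h, and 44.6 and 43.3 at 4 h.

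The identity of the sorted cells was checked on the marker genes that the annotation pairs with a probe set. All 3 root cap genes measured of 10 listed, AT1G65570 (a polygalacturonase), SCPL48 and PASPA3, exceeded background on all 6 arrays. Their summed intensity was 10040 and 8189 untreated, 12139 and 9384 at 1 h, and 7322 and 7505 at 4 h. The sum was lowest on the 4 h arrays, but the 3 genes did not move alike. AT1G65570 read 643 and 771 untreated, 1550 and 1539 at 1 h, and 978 and 706 at 4 h. SCPL48 read 3852 and 3841, 5155 and 3932, and 2380 and 2689 in the same order, and PASPA3 5545 and 3578, 5435 and 3912, and 3964 and 4110. Only SCPL48 was lower on both 4 h arrays than on all others. The part of these markers in the differences of the flavonoid genes was not tested. Of 6 measured genes of epidermis, cortex, endodermis and quiescent centre, at most 2 exceeded background on an array, and EXPA7, AT1G62500 and AGL42 did so on none. GSO1, of the endodermis, exceeded it on untreated replicate 2 (53.0) and on both 4 h arrays (36.1 and 38.6). EXPA18, of the epidermis, did so on untreated replicate 1 (48.5) and 1 h replicate 2 (77.3). For AT1G09750, of the cortex, it was untreated replicate 1 (45.1) and 1 h replicate 1 (49.5). The summed intensity of all 6 was 155 to 158 untreated, 157 to 175 at 1 h and 137 to 141 at 4 h. The defining root cap regulators FEZ and SMB and all 7 stele markers were not analysed here.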

How the data were processed

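RNA of 6 samples of sorted cells was labelled with biotin in 2 rounds and hybridised to ATH1 arrays, per the labels' protocols. The deposited table holds 1 linear intensity per probe set and array. The summarising software is not given in the sources used here. The deposited columns had nearly equal trimmed means (2% off each end; 250.03 on each array), so they had been scaled before deposit.

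From 22810 rows, 64 control probe sets were left out. Log2 of the intensity plus a pseudocount of 16 was quantile normalized, and a mean per group was fitted with limma 3.58.1 in R 4.3.3 to all 6 arrays. Two-sided p-values were adjusted over 22746 probe sets by the Benjamini-Hochberg method and called under 0.05. SE are those of this fit; SD are over 2 arrays. Background was the 95th percentile of 27 Bacillus subtilis control probe sets of each array, and between 58.1% and 67.8% of probe sets exceeded it. It was 43.2 and 47.1 at 1 h and from 29.1 to 33.4 on the other arrays. A signal could therefore exceed it on those arrays and not at 1 h without being stronger. The number of arrays limits the precision.

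Gene names came from a platform annotation dated 2016, which gives 1 gene for 13513 probe sets. The members, lists and tests were chosen with earlier results of these data known. Named were the 7 genes, the listed genes that passed or, per list, the 3 above background with the largest difference of 4 h against 1 h, the 10 most alike profiles and the 3 most opposite. Below-background list members were added to account for every measured one. On simulated data with independent normal noise the fit returned the planted differences on average. That check covers neither the normalization nor variation shared between probe sets. Alternatives were other pseudocounts, no or another normalization, a background filter, a prior variance that follows the signal, array weights, a replicate block, fits of 4 arrays and leaving out each array. Promoter motifs were planned but no sequences were used here.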

Additional observations from a re-analysis of the deposited data

Results flagged for a closer look

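For 7 of 7 genes every 1 h array lay below and every 4 h array above the untreated arrays after normalization, a sequence shown by 1.56% of all probe sets. The log2 difference of 4 h against 1 h was 5.48 for CHS, 4.23 for CHI, 3.95 for CHIL, 3.45 for F3H, 3.14 for FLS1 and 3.57 for KAT5. For F3'H, which was not above background on either 1 h array, the fitted value was 1.93 and the bound at least 2.32-fold. No test of these differences is given, because they were used to choose the genes. For FLS1 the sequence does not hold in the deposited intensities, where 1 h replicate 2 (67.5) exceeded untreated replicate 2 (63.5). For CHI and KAT5 untreated replicate 2 (72.9 and 54.3) and 1 h replicate 1 (72.7 and 54.3) were nearly equal there.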

How the results depend on the processing

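The direction of all 7 genes was the same in each of the 3 contrasts under 13 alternatives that gave single-gene values. At 1 h 91 of 91 values were negative, and 91 of 91 were positive in each 4 h contrast. The replicate block, the array weights and the fits of 4 arrays returned the main values, so they could not alter a direction. Leaving out an array of the group not compared changed the values little. The directions were also used to choose the genes, so these counts are a description. Sizes of weak signals depended on the pseudocount. With a pseudocount of 1 and 64 the median of the 7 was -1.17 and -0.61 at 1 h and 3.94 and 2.91 for 4 h against 1 h, and with 64 it was 2.51 for 4 h against untreated. Leaving out 1 array gave medians of -1.27 to -0.57 at 1 h, 2.56 to 3.01 for 4 h against untreated and 3.47 to 3.67 for 4 h against 1 h. The lowest size at 1 h came without 1 h replicate 2. FLS1 at 1 h was -0.10 without untreated replicate 1 and -0.56 without untreated replicate 2. With no normalization between arrays FLS1 at 1 h was -0.18 and KAT5 -0.34, and the median of the 7 was -0.84.

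Counts of called probe sets depended strongly on the fit. For 4 h against untreated, 1 became 0 with a pseudocount of 1, the replicate block or only the 4 arrays compared, 108 with a pseudocount of 64, 8 with the background filter and 123 with a signal-dependent prior variance. For 4 h against 1 h, 5 became 0 with a pseudocount of 1 or only the 4 arrays, 42 with 64, 17 with the filter, 53 with that prior variance and 8 with array weights. Leaving out any 1 of the 6 arrays gave 0 in both; 1 sample then stands for its group and is assumed to vary like the others. Of the wider pathway genes 1 (UGT89C1) passed, with a pseudocount of 64. The cause of these shifts was not tested. The replicate block left 5 calls for 4 h against 1 h. Whether same-numbered arrays were matched between groups is not given by the labels. Over all probe sets their deviations correlated at 0.12 (untreated with 1 h), -0.02 (untreated with 4 h) and -0.04 (1 h with 4 h). Such values cannot settle whether replicates were matched. Among the 7 genes replicate 1 was the higher one for 7 untreated, 5 at 1 h and 4 at 4 h.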
